A study of Mus musculus with 4 samples.

Results

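The genes Spi1, Cebpa, Cebpb, Cebpe, Irf8 and Gfi1 encode transcription factors of the myeloid lineage, and their RNA was counted in single LSK cells, the bone marrow cells without lineage antigens but with Sca-1 and cKit on their surface, among which stem cells and early progenitors of blood are found. They were chosen by symbol, and each of the 6 matched 1 of the 32285 gene rows of both count matrices. Their levels were followed across cell types, from cell to cell, and between wild-type cells and cells lacking Sin3b, which encodes a scaffold protein of histone deacetylase complexes.

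As background, Spi1 encodes PU.1, an ETS factor needed to make both myeloid and lymphoid cells, and Cebpa encodes the factor that opens the granulocyte and monocyte program. Cebpb takes the place of Cebpa when granulocytes are made in an emergency, and Cebpe acts later, in the maturation of neutrophil granules. Irf8, which binds DNA together with PU.1, steers progenitors towards monocytes and dendritic cells, whereas Gfi1 is a repressor that favours neutrophils and also restrains the cycling of stem cells.

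LSK cells came from C57BL/6 mice at homeostasis, without treatment, or 9 days after an intraperitoneal injection of 5-fluorouracil (5-FU) at 100 mg/kg, which is toxic to cycling cells. Wild-type cells were from Sin3B F/F mice and knockout cells from Sin3B H-/- mice, which carry the same floxed alleles and Vav1-iCre, a recombinase active in blood-forming cells from fetal life onwards. All mice at homeostasis were male, and for the 5-FU mice the methods give only the general statement that both sexes were used equally in experiments not specified otherwise. Cells of 2 mice were pooled for each genotype and condition, tagged with a hashtag antibody for their genotype and loaded together, giving 1 library per condition.

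The design left 1 pool of cells for each genotype in each library, so genotypes were compared within a library without a test. Intervals given with levels and ratios are 95% intervals that cover counting error only and not the difference between mice. Homeostasis and 5-FU were separate libraries, so levels are not compared between them, and the treatment and the library cannot be told apart. The libraries shared 76 cell barcodes.

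Filtering left 10280 wild-type and 4120 knockout cells of the homeostasis library and 4833 and 3292 of the 5-FU library, with median depths between 6615 and 10935 unique molecular identifiers (UMIs, counted RNA molecules) per cell. Sin3b itself was at 81.9 UMIs per 1000000 UMIs of the pool (CPM) in wild-type cells at homeostasis and 23.2 in cells tagged as knockout, and at 113 and 15.1 CPM after 5-FU. Kit, which encodes cKit, was counted in 83.0% to 88.6% of the cells of each pool and Ly6a, which encodes Sca-1, in 39.0% to 61.9%. Clusters of cells were given class names from marker genes, none of which was one of the 6 factors. The antigen-presenting-like cluster of the homeostasis library also raised 7 of 9 LT-HSC markers, at a summed 2811 CPM in wild-type cells against 3332 in LT-HSC-like cells, so its cells were stem-like by those markers too. That of the 5-FU library raised 3 of 9, and its summed LT-HSC markers were at 1647 CPM in wild-type cells against 1887 in LT-HSC-like cells. The 6 factors, and the listed genes that work with or under them, were left out of the clustering. So were other genes past the genotype fold used below, except marker genes. The same cells made the clusters, so levels by class are a description. The cells named long-term hematopoietic stem cell (LT-HSC)-like made up 15.4% of the wild-type pool and 29.2% of the knockout pool at homeostasis, and 21.7% and 26.9% after 5-FU.

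The 6 genes lie on 5 chromosomes of the GRCm38 build. Spi1 spans chr2:91082390-91115756 on the plus strand and Cebpb, a gene of 1 exon, chr2:167688915-167690418 on the same strand. Cebpa lies at chr7:35119293-35121928 on the plus strand, Cebpe at chr14:54710360-54712174 on the minus strand, Irf8 with 9 exons at chr8:120736358-120756694 on the plus strand, and Gfi1 with 7 exons at chr5:107716657-107726036 on the minus strand.

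The 250 bases before the start site are shown for Irf8 and Cebpa, the members past the genotype fold used below other than Cebpe, which had few UMIs. The windows are RefSeq sequences of GRCm38.p6, for Irf8 at chr8:120736108-120736357 and for Cebpa at chr7:35119043-35119292, both on the plus strand. RefSeq windows were at hand for 4 of the 6 members, and none for Spi1 or Cebpe. Capitals mark matches, on either strand, to 5 searched motifs.
Irf8 promoter window: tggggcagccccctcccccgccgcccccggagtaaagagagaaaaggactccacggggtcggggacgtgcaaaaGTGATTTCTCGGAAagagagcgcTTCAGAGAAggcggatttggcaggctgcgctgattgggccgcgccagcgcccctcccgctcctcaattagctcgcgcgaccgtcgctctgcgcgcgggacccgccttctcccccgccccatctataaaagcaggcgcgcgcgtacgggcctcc
Cebpa promoter window: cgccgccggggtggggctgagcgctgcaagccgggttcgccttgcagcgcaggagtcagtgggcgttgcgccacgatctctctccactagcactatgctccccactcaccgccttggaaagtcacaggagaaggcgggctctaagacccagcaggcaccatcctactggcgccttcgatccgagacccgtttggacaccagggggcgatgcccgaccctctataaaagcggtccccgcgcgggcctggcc

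The motifs were GAGGAAG for PU.1, TTGCNNAA for C/EBP factors, GGAANNGAA for an ETS factor with an IRF factor, AAATCAC for Gfi1 and TTCNNNGAA for STAT factors. In the Irf8 window, a match to AAATCAC lay on the minus strand 176 bases before the start, overlapping the STAT match TTCTCGGAA at 171 bases, and a further STAT match, TTCAGAGAA, lay at 153 bases. Among 32851 promoter windows of the same length, 2.75% held AAATCAC and 7.02% TTCNNNGAA, beside 10.6% with GAGGAAG, 9.56% with TTGCNNAA and 6.99% with GGAANNGAA. The Cebpa and Cebpb windows and the windows of second start sites of Irf8 and Gfi1 held none of these letters, and the window of the first Gfi1 start site held TTGCTGAA 143 bases before the start. A match describes letters and not a bound site.

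Among the named classes of wild-type cells, Cebpa and Irf8 were highest in neutrophil-primed-like cells in both libraries. Spi1 was highest in neutrophil-primed-like and lymphoid-primed-like cells at homeostasis. Summed over the class, Spi1 after 5-FU was as high in LT-HSC-like as in neutrophil-primed-like cells within counting error. Its levels in the separate LT-HSC-like clusters did not overlap, however. Cebpb and Gfi1 were spread over the stem-like and primed classes, and Cebpe was scarce. Megakaryocyte-erythroid-like cells were among the lowest classes for each of the 6. Levels below are CPM of the summed UMIs of a class, and orders are read within a gene, not between genes.

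Spi1 was counted in every class. At homeostasis it was at 131 CPM in neutrophil-primed-like and 126 in lymphoid-primed-like cells, whose intervals overlapped, then at 97.5 in LT-HSC-like and 91.2 in antigen-presenting-like cells, which overlapped too. It was lower in megakaryocyte-erythroid-like cells, at 61.9, and in a cluster of 69 wild-type cells, at 59.0, in which 3 mast or basophil markers and 7 megakaryocyte-erythroid markers were raised and which is given no name here. Across the 15 homeostasis clusters with at least 50 wild-type cells the highest level was 2.22 times the lowest, and across the 13 such clusters after 5-FU 4.62 times. After 5-FU the order was 154 CPM in neutrophil-primed-like, 151 in LT-HSC-like, 121 in antigen-presenting-like and 63.8 in megakaryocyte-erythroid-like cells, of which only the first pair overlapped. The 2 LT-HSC-like clusters of that library did not overlap, at 154 CPM (147 to 163) and 84.8 (61.9 to 113). Those at homeostasis did not overlap either, at 102 CPM (96.1 to 109) and 80.3 (70.1 to 91.6). The highest cluster after 5-FU, at 195 CPM (168 to 225), was an unnamed one of 111 wild-type cells.

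Cebpa was graded more steeply. It was counted at 26.1 CPM in neutrophil-primed-like cells, 15.3 in lymphoid-primed-like, 5.28 in antigen-presenting-like, 4.98 in LT-HSC-like and 1.81 in megakaryocyte-erythroid-like cells at homeostasis. The antigen-presenting-like and LT-HSC-like cells did not differ beyond their intervals. The 2 LT-HSC-like clusters did not overlap, at 5.96 CPM (4.54 to 7.69) and 1.45 (0.394 to 3.70). After 5-FU neutrophil-primed-like cells held 33.7 CPM, antigen-presenting-like cells 10.7, and megakaryocyte-erythroid-like and LT-HSC-like cells, which overlapped, 2.40 and 1.93. An unnamed cluster of 785 wild-type cells in that library was at 32.7 CPM, which overlapped with the neutrophil-primed-like cells. At a common depth of 4000 UMIs per cell, 9.05% of wild-type neutrophil-primed-like cells had a Cebpa UMI at homeostasis against 1.10% of megakaryocyte-erythroid-like cells, a class in which little Cebpa is expected. Without thinning these shares were 21.0% and 1.53%, at median depths of 9620.5 and 7623 UMIs.

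Irf8 at homeostasis was at 93.9 CPM in neutrophil-primed-like cells, 69.2 in lymphoid-primed-like cells and 9.63 in LT-HSC-like cells. The neutrophil-primed-like cluster there also raised 5 of 7 detected monocyte or dendritic markers, Ly86, F13a1, Ms4a6c, Ccr2 and Ly6c2, and that of the 5-FU library 3 of 5. Antigen-presenting-like cells, at 8.66, and megakaryocyte-erythroid-like cells, at 6.74, overlapped with LT-HSC-like cells. The lymphoid-primed-like class alone held 23.1% of all wild-type Irf8 UMIs, with 10.7% of the cells, and the neutrophil-primed-like class 16.7%, with 3.89% of the cells. After 5-FU, neutrophil-primed-like cells were at 28.3 CPM, antigen-presenting-like at 9.55, LT-HSC-like at 5.29 and megakaryocyte-erythroid-like at 1.44.

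Small clusters outside the named classes held the highest Irf8. After 5-FU an unnamed cluster led by Klrd1, Mpeg1 and Dntt, with 111 wild-type cells, reached 132 CPM. It raised 7 of 7 detected lymphoid-primed and 5 of 5 detected antigen-presenting markers and was left unnamed because of that tie. A large unnamed cluster of the same library, with 785 wild-type cells, was at 35.5 CPM, which overlapped with the 28.3 CPM of neutrophil-primed-like cells. That large cluster raised 3 of 6 detected neutrophil-primed and 3 of 4 detected lymphoid-primed markers. At homeostasis 12 cells led by Plbd1, Cd74 and Batf3, genes of dendritic cells among them, were at 888 CPM in 7 wild-type and 1369 CPM in 5 knockout cells. Cells with 10 or more Irf8 UMIs numbered 8 wild-type and 4 knockout at homeostasis, holding 4.75% and 10.2% of the Irf8 UMIs of their pools, and 6 and 1 after 5-FU, holding 15.9% and 2.88%.

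Pooled over each class, Cebpb overlapped between the stem-like and primed classes. At homeostasis it was at 30.8 CPM in antigen-presenting-like, 30.1 in neutrophil-primed-like, 28.5 in lymphoid-primed-like and 27.8 in LT-HSC-like cells, with overlapping intervals, and at 15.8 in megakaryocyte-erythroid-like cells. The 2 LT-HSC-like clusters there did not overlap, at 39.4 CPM (32.4 to 47.5) and 24.6 (21.6 to 27.8). The highest cluster at homeostasis, at 49.0 CPM, was led by the interferon-induced genes Cxcl10, Ifit3 and Ifit1. In the barcodes of the homeostasis library with 100 UMIs or fewer, which hold free RNA rather than cells, Cebpb was at 150.3 CPM, 5.81 times its level in cells, against ratios of 0.889 for Spi1, 0.995 for Gfi1, 1.10 for Irf8, 1.42 for Cebpa and 2.62 for Cebpe, the last from 12 UMIs in these barcodes. How far free RNA set the Cebpb levels or the few Cebpe UMIs was not tested.

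Gfi1 was low in megakaryocyte-erythroid-like cells and spread over the other classes. At homeostasis its levels of 20.8 CPM in antigen-presenting-like, 18.7 in LT-HSC-like, 18.02 in lymphoid-primed-like and 15.04 in neutrophil-primed-like cells overlapped in turn, and megakaryocyte-erythroid-like cells held 2.33. After 5-FU LT-HSC-like cells were at 42.6 and antigen-presenting-like cells at 34.5, both above the 20.005 CPM of neutrophil-primed-like cells and the 1.44 of megakaryocyte-erythroid-like cells. Cebpe was counted 61 times in all wild-type cells at homeostasis and 71 times after 5-FU. Its highest named class was neutrophil-primed-like in both libraries, at 2.71 (1.35 to 4.85) and 2.54 CPM (1.45 to 4.13) from 11 and 16 UMIs. These intervals overlapped with those of antigen-presenting-like cells, up to 1.39 and 2.81 CPM, and after 5-FU with LT-HSC-like cells, up to 2.13. An LT-HSC-like cluster, at 3.77 CPM, and an unnamed one, at 11.9, were higher after 5-FU, each from 2 UMIs. In the 457 and 481 wild-type megakaryocyte-erythroid-like cells 0 UMIs were found. Thinning to 4000 UMIs per cell left 454 and 462 of them, which allows a share of cells with a UMI of up to 0.661% and 0.649%.

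**Figure D1:**
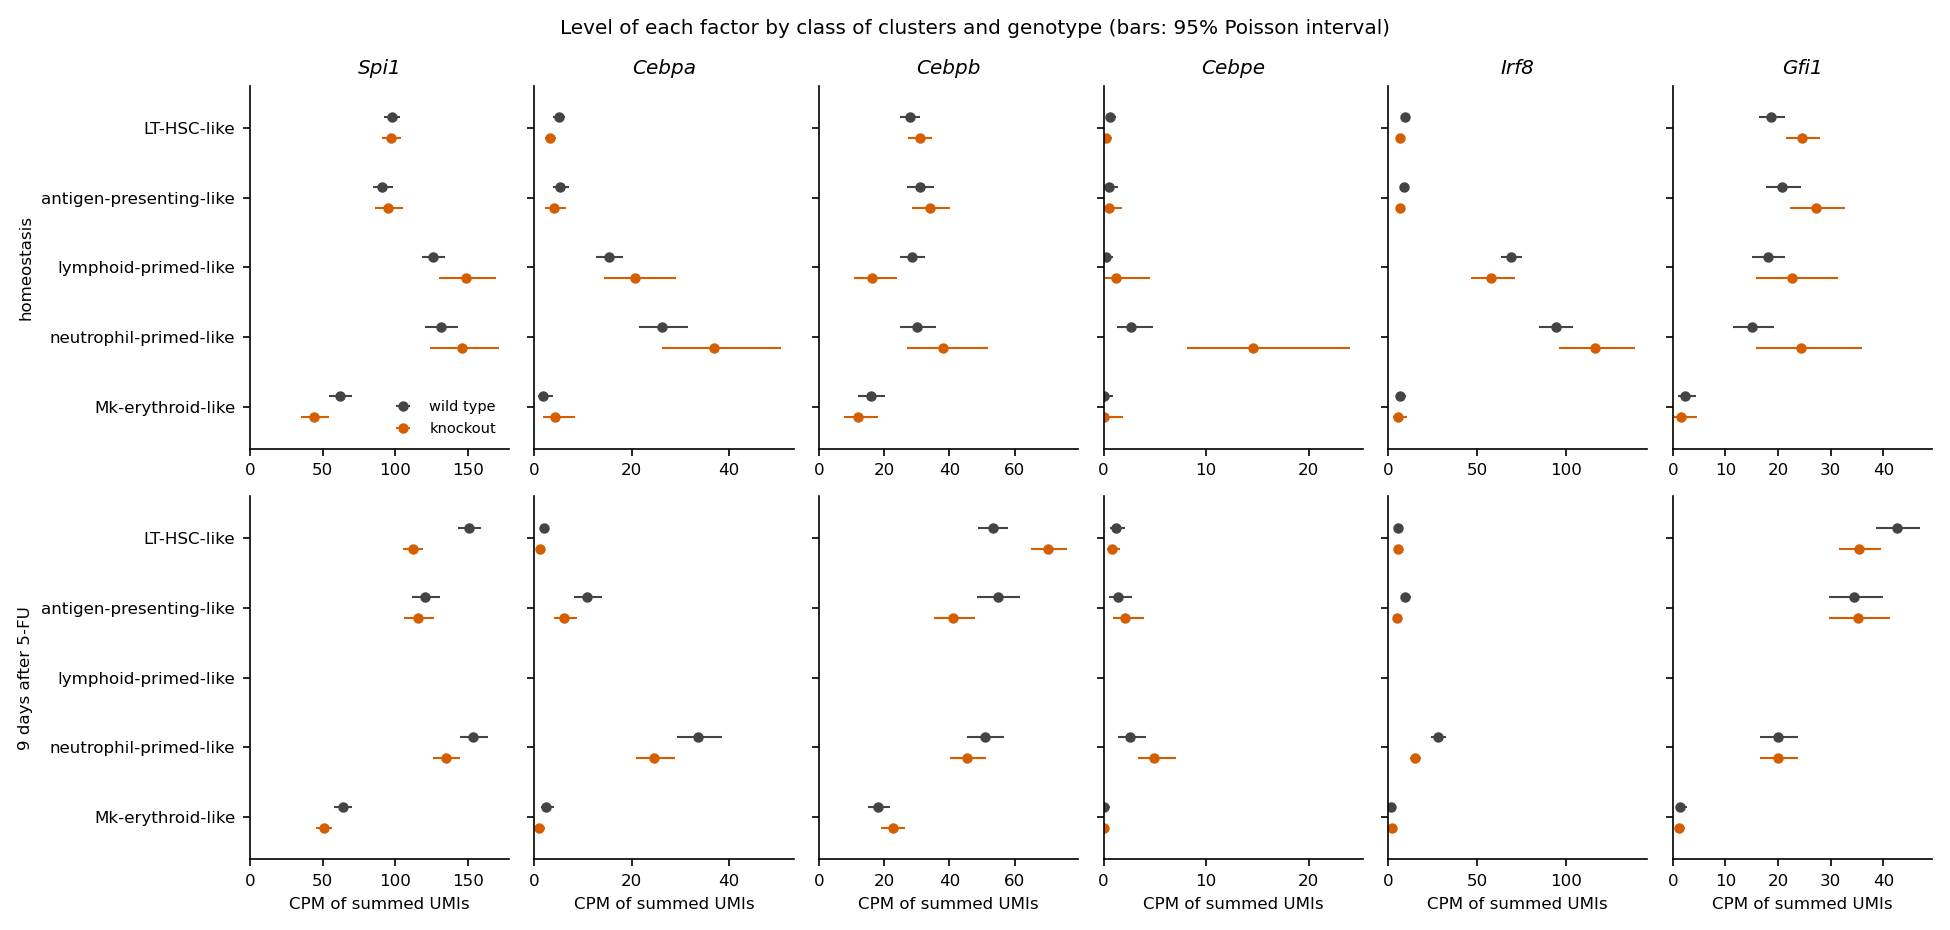
Level of each factor, as CPM of summed UMIs on a linear axis from 0, by class of clusters at homeostasis (top) and after 5-FU (bottom), in wild-type (grey) and knockout (orange) cells, with 95% Poisson intervals as bars; no lymphoid-primed-like class was named after 5-FU. Irf8 in wild-type cells at homeostasis reached 93.9 CPM in neutrophil-primed-like and 69.2 in lymphoid-primed-like cells against 9.63 in LT-HSC-like cells, whereas Cebpb stayed between 27.8 and 30.8 in the 4 upper classes.

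Over all kept cells, Irf8 was at a lower CPM in knockout than in wild-type cells in both libraries, and was the only one of the 6 for which a fit over both libraries made a call. Cebpa was lower in knockout cells after 5-FU but not at homeostasis. Spi1 stayed level at homeostasis and was lower in knockout cells after 5-FU, at a log2 ratio of -0.30. Gfi1 was slightly higher in knockout cells at homeostasis and slightly lower after 5-FU, and Cebpb stayed level in both. Past an absolute log2 ratio of 0.5, used here as the fold for a call without a test, were 2 of the 6 members at homeostasis (Irf8 and Cebpe), where 13.4% of 15541 genes with at least 50 UMIs passed it, and 2 of 6 after 5-FU (Irf8 and Cebpa), where 11.5% of 13517 genes did. The median log2 ratio of the 6 was 0.04 and -0.25.

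Irf8 was counted 2275 times in wild-type and 606 times in knockout cells at homeostasis, at 27.2 and 18.9 CPM, and 804 and 452 times after 5-FU, at 15.4 and 10.4 CPM. The knockout pool was the lower of the pair in each library. On the log2 scale the difference, knockout minus wild type, was -0.52 (95% interval -0.65 to -0.39) at homeostasis and -0.57 (-0.74 to -0.40) after 5-FU. At 4000 UMIs per cell, the homeostasis share of cells with an Irf8 UMI was 7.89% (7.37 to 8.44) for wild type and 5.11% (4.44 to 5.85) for knockout. After 5-FU these shares were 4.17% (3.59 to 4.81) and 3.46% (2.84 to 4.16), with overlapping intervals. Across the 4 pools, edgeR's quasi-likelihood test with Benjamini-Hochberg adjustment gave a log2 fold change of -0.55 (SE 0.099, 1 residual degree of freedom) and an adjusted p of 0.0482 for Irf8. That test moderates each gene's own spread with a trend over all genes. DESeq2's Wald test on the same pools gave an adjusted p of 0.323 and made no call for it. The edgeR fit called 286 of 17230 genes, 1.66%, and the adjusted p of the other members ran from 0.405 for Cebpa to 0.965 for Gfi1.

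The Irf8 difference depended on which cells were counted. After 5-FU 2 wild-type cells held 37 Irf8 UMIs each, and without 1 of them the ratio was -0.50, inside the fold, and without the knockout cell with 20 UMIs that at homeostasis was -0.57. When clusters were given the same weight in both genotypes it was -0.16 at homeostasis and -0.42 after 5-FU. Lymphoid-primed-like cells, rich in Irf8, made up 10.7% of the wild-type pool at homeostasis and 5.51% of the knockout pool, and the summed level of 8 lymphoid-primed marker genes was 855 and 599.6 CPM, with 8 and 7 of them detected. Neutrophil-primed-like cells, also rich in Irf8, made up 3.89% and 2.14% there, and the summed neutrophil-primed markers were at 602 and 498 CPM. Of the 8 monocyte or dendritic markers all were detected in both genotypes, at a summed 297 and 312 CPM. After 5-FU the summed lymphoid-primed markers were at 258 CPM in the wild-type pool and 143 in the knockout pool, the neutrophil-primed markers at 838 and 608 CPM and the monocyte or dendritic markers at 439.8 and 450.2 CPM. The part of these shares and markers in the pooled ratios was not tested beyond that weighting. Another tag rule, under which the main hashtag had to hold 80% of a cell's hashtag UMIs, left 875 knockout cells at homeostasis, of which 597 were among the knockout cells kept above and 0 among the wild-type ones. In these, Irf8 was at 31.0 CPM from 277 UMIs against 28.5 CPM in 6210 wild-type cells, a log2 ratio of 0.12, while Sin3b stayed at 23.2 against 85.7 CPM. The 875 cells were deeper, at a median of 9147 UMIs against 7731 in those wild-type cells and 6615 in the knockout cells kept above. The part of depth in the change was not tested. Under that rule the 5-FU ratio was -0.55 and the edgeR call was lost, with an adjusted p of 0.684.

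Within clusters Irf8 was mostly lower in knockout cells at homeostasis and less uniform after 5-FU. Of 11 homeostasis clusters with at least 50 cells of each genotype, 10 had a lower level in knockout cells, in 4 with an interval below 0, and the exception was the neutrophil-primed-like cluster, at 93.9 CPM in wild-type and 116 in knockout cells. Of 12 clusters after 5-FU, 7 had a lower level, also 4 with an interval below 0, and 5 a higher one. The lowest ratio with at least 50 UMIs at homeostasis, -1.05 (-1.95 to -0.31), was in an unnamed cluster of 766 wild-type and 263 knockout cells whose only leading gene was Gm49164. After 5-FU the neutrophil-primed-like cluster was at 28.3 CPM in 312 wild-type and 15.1 in 247 knockout cells, a log2 ratio of -0.90 (-1.29 to -0.54), which was -0.57 without a wild-type cell of 37 UMIs. The summed neutrophil-primed markers of that cluster were at 2015 and 1324 CPM and the lymphoid-primed markers at 195 and 118 CPM, and their part in the ratio was not tested. A cluster led by the mitotic genes Ube2c, Pimreg and Hmmr had a ratio of -1.59, which was -0.46 without another wild-type cell of 37 UMIs.

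**Figure D2:**
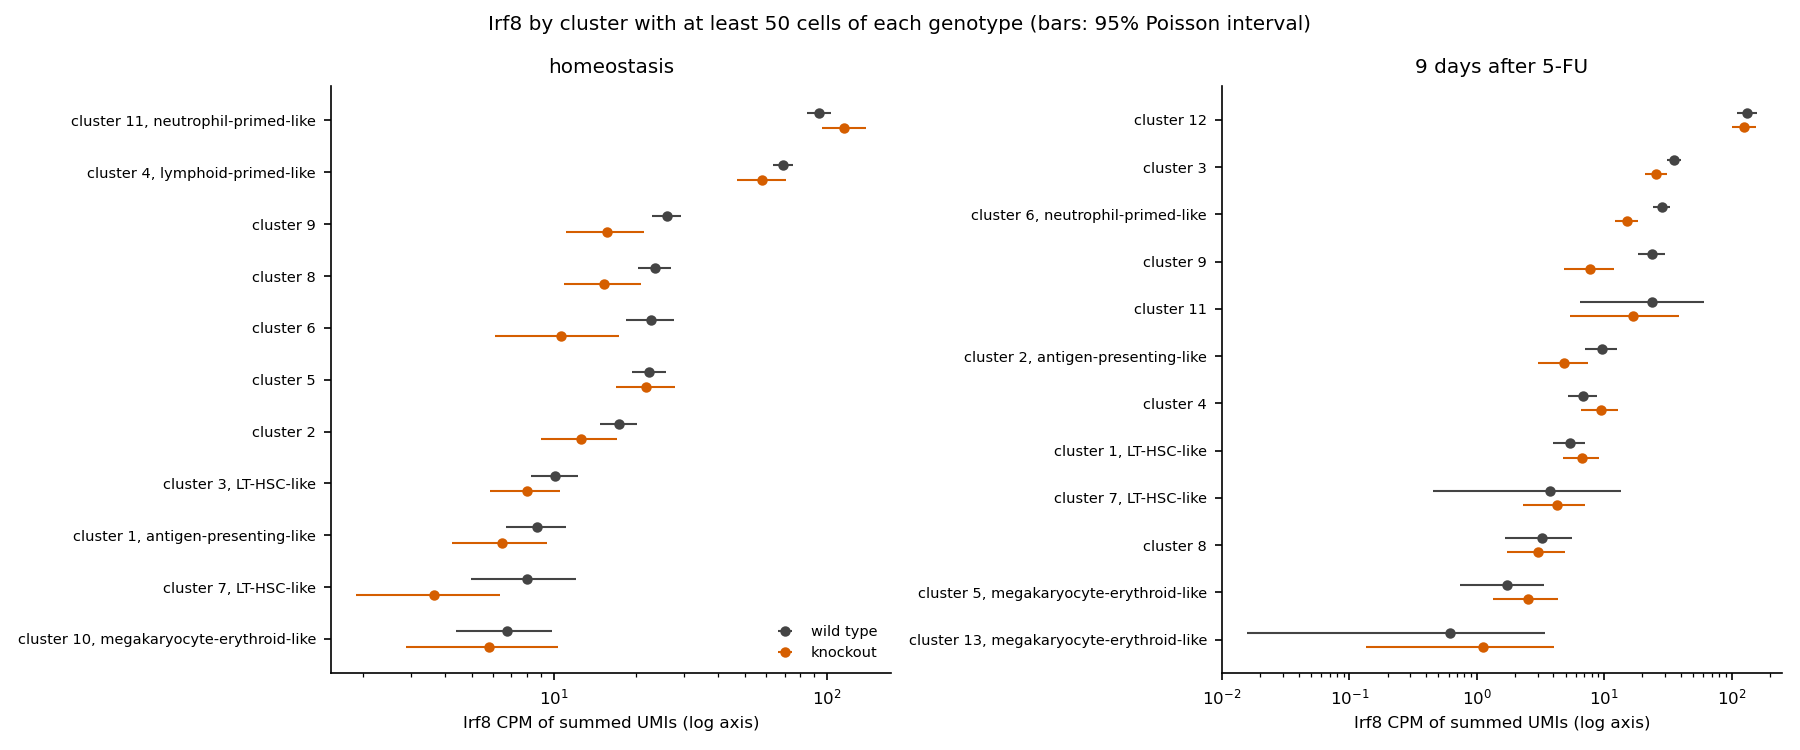
Irf8 level, as CPM of summed UMIs on a log axis, in every cluster with at least 50 cells of each genotype, in wild-type (grey) and knockout (orange) cells, with 95% Poisson intervals as bars. At homeostasis the knockout point lies to the left in 10 of 11 clusters, the exception being the neutrophil-primed-like cluster at 93.9 and 116 CPM, and after 5-FU in 7 of 12.

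In LT-HSC-like cells the numbers were small. At homeostasis Irf8 was counted 122 times in 1584 wild-type and 59 times in 1201 knockout cells, at 9.63 and 6.42 CPM, a log2 ratio of -0.58 (-1.06 to -0.13). After 5-FU it was counted 52 times in each genotype, at 5.29 and 5.80 CPM, a ratio of 0.13 (-0.45 to 0.72). Cebpa was counted 63 and 29 times at homeostasis, a ratio of -0.64 (-1.35 to -0.0017), and 19 and 10 times after 5-FU. The homeostasis class joined 2 clusters, with 1134 and 450 wild-type and 686 and 515 knockout cells. In the first, which held most of these UMIs, both genes were inside the fold, Irf8 at -0.34 (-0.88 to 0.17) and Cebpa at -0.48 (-1.23 to 0.20), and in the second they had under 50 UMIs. Over the class the summed lymphoid-primed markers were at 422 CPM in wild type and 329 in knockout, the neutrophil-primed markers at 420.2 and 346 CPM and the antigen-presenting markers at 196 and 130.5 CPM, and their part in these ratios was not tested. Past the fold over the class were 2 of the 5 members with at least 50 UMIs at homeostasis, with 9.40% of all genes, and 0 of 4 after 5-FU, with 10.6%. The edgeR fit over the LT-HSC-like pools called 530 of 14148 genes, 3.75%, and 0 of the 5 members tested. Its adjusted p was 0.146 for Cebpb, 0.319 for Spi1, 0.393 for Cebpa, 0.718 for Irf8 and 0.944 for Gfi1, and the unadjusted p was under 0.05 for 2 of them, Cebpb at 0.0113 and Spi1 at 0.0481. With clusters built with the genes that differ between genotypes, the unadjusted edgeR p was 0.405 for Cebpb, 0.907 for Spi1 and 0.00529 for Irf8, whose log2 fold change was then -0.82 with an adjusted p of 0.107, so which members stood out depended on the clustering. DESeq2 called 0 of the 4 members to which it gave an adjusted p, and 0 of them had an unadjusted p under 0.05.

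Cebpa had the larger difference after 5-FU. It was counted 863 times in wild-type and 323 times in knockout cells at homeostasis, at 10.3 and 10.1 CPM, and 704 and 381 times after 5-FU, at 13.5 and 8.78 CPM. The homeostasis pools differed by less than counting error, at a log2 ratio of -0.03 (-0.22 to 0.15), and the 5-FU pools by -0.62 (-0.80 to -0.44). In the latter library 11 of 12 clusters had a lower level in knockout cells, in 4 of them with an interval below 0. At homeostasis 7 of 11 had a higher level, in 2 of them with an interval above 0. Of the 9 homeostasis clusters with at least 50 UMIs, 3 were past the fold higher and 0 lower. The 5-FU ratio was -0.45 (-0.76 to -0.14) in neutrophil-primed-like and -0.81 (-1.56 to -0.13) in antigen-presenting-like cells. It was -0.60 without the cell that held the most Cebpa UMIs and -0.54 with clusters weighted alike, but -0.36 when cells at the extremes of depth and mitochondrial share were kept. The summed level of 8 neutrophil-primed markers was 838 CPM in wild-type and 608 in knockout cells after 5-FU, and its part in the Cebpa ratio was not tested.

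Spi1 was at 106 and 107 CPM in wild-type and knockout cells at homeostasis, a log2 ratio of 0.02 (-0.03 to 0.08), and at 132 and 107 CPM after 5-FU, a ratio of -0.30 (-0.35 to -0.24). After 5-FU 10 of 12 clusters were lower in knockout cells, 7 of them with an interval below 0, and 1 of the other 2 had an interval above 0. At homeostasis 9 of 11 were higher, 2 of them with an interval above 0, and 1 of the other 2 had an interval below 0. In LT-HSC-like cells after 5-FU, Spi1 was at 151 CPM in wild-type and 112 in knockout cells, a ratio of -0.43 (-0.55 to -0.31). This class joined 2 clusters of unlike makeup, the first with 963 wild-type and 466 knockout cells and a ratio of -0.15, the second with 85 and 418 cells and a ratio of -0.40. Over the class the summed neutrophil-primed markers were at 928 CPM in wild type and 719 in knockout and the lymphoid-primed markers at 135 and 54.4 CPM, and their part in the ratio was not tested. With clusters weighted alike the ratio over all kept cells was -0.15.

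Cebpb was at 25.6 and 26.6 CPM in wild-type and knockout cells at homeostasis, a log2 ratio of 0.06 (-0.06 to 0.17), and at 42.2 and 43.2 after 5-FU, a ratio of 0.03 (-0.06 to 0.12). Beneath these level totals the classes went different ways. After 5-FU Cebpb was at 53.2 and 70.3 CPM in LT-HSC-like cells, a ratio of 0.40 (0.23 to 0.57) that was 0.45 and 0.03 within its 2 clusters, and at 54.8 and 41.2 in antigen-presenting-like cells, a ratio of -0.41 (-0.69 to -0.14). At homeostasis the lymphoid-primed-like cells held 217 UMIs (1098 wild-type cells) and 26 UMIs (227 knockout cells), 28.5 and 16.4 CPM, a ratio of -0.78 (-1.45 to -0.21). That was the only one of 5 members past the fold in this class, where 15.9% of genes passed it. In the same cells the summed antigen-presenting markers were at 171 CPM in wild type and 112 in knockout and the lymphoid-primed markers at 2744.5 and 2340 CPM. The neutrophil-primed markers were at 419 and 433 CPM and the monocyte or dendritic markers at 320 and 369 CPM. The part of these markers in the ratio was not tested.

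Gfi1 was counted 1517 and 697 times at homeostasis, at 18.1 CPM in wild-type and 21.7 in knockout cells, and 1322 and 955 times after 5-FU, at 25.4 and 22.0 CPM. The log2 ratio was 0.26 (0.13 to 0.39) at homeostasis, with a higher level in 8 of 11 clusters, and -0.20 (-0.33 to -0.08) after 5-FU, with a lower level in 6 of 12 and a higher one in the other 6. In LT-HSC-like cells it was 0.39 (0.12 to 0.66), from 18.7 and 24.6 CPM, and -0.27 (-0.49 to -0.06), from 42.6 and 35.3 CPM. Within the 2 LT-HSC-like clusters of the 5-FU library it was -0.07 and -0.04. With all clusters weighted alike Gfi1 was at 0.27 at homeostasis and -0.0033 after 5-FU. None of these passed the fold.

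Cebpe was counted 61 and 37 times at homeostasis, at 0.728 and 1.15 CPM, a log2 ratio of 0.67 (0.03 to 1.28). One knockout cell in the neutrophil-primed-like cluster held 10 of the 37 UMIs, and without it the ratio was 0.23. After 5-FU there were 71 and 65 UMIs, a ratio of 0.14 (-0.37 to 0.64), which was -0.02 without a knockout cell of 7 UMIs. Neutrophil-primed-like cells held 11 wild-type and 15 knockout UMIs at homeostasis and 16 and 30 after 5-FU, too few for a call.

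In the remaining classes few members passed the fold. Neutrophil-primed-like cells at homeostasis had 2 of 5, Gfi1 at 0.71 (-0.04 to 1.39) and Cebpa at 0.51 (-0.07 to 1.05), both with intervals that held 0 and from 88 knockout cells, where 18.3% of genes passed. In the same cells the summed level of the neutrophil-primed markers was 1666 CPM in wild type and 2827 in knockout, and that of the monocyte or dendritic markers 415 and 681 CPM, and their part in these ratios was not tested. A cluster of 367 wild-type and 29 knockout cells that also held Elane among its leading genes was left unnamed, since those genes held as many or more markers of other classes, and that was decided after member values had been seen. It also raised 4 of 5 detected B-lineage markers. With it counted in, Gfi1 was at 0.47, Cebpa at 0.73 and Irf8 at 0.67. In wild-type cells, Irf8 was at 31.7 CPM in that unnamed cluster against 93.9 in the neutrophil-primed-like cluster. Cebpa was lower there too, and the Gfi1 intervals overlapped. Counting it in so added mostly wild-type cells of lower Irf8 and Cebpa, and the part of this mixing in the joined ratios was not tested. Neutrophil-primed-like cells after 5-FU had 1 of 5, Irf8, with 9.10% of genes. Antigen-presenting-like cells had 0 of 5 at homeostasis, with 11.2% of genes, and 2 of 5 after 5-FU, Irf8 and Cebpa, with 8.74%. There the Irf8 ratio of -0.95, from 49 and 21 UMIs, was -0.43 without 1 wild-type cell of 15 UMIs. The summed lymphoid-primed markers of that class were at 267 CPM in wild type and 189 in knockout and the neutrophil-primed markers at 555 and 468 CPM, and their part in these ratios was not tested. Megakaryocyte-erythroid-like cells had 0 of 2 in both libraries, with 11.5% and 9.13% of genes.

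**Figure D3:**
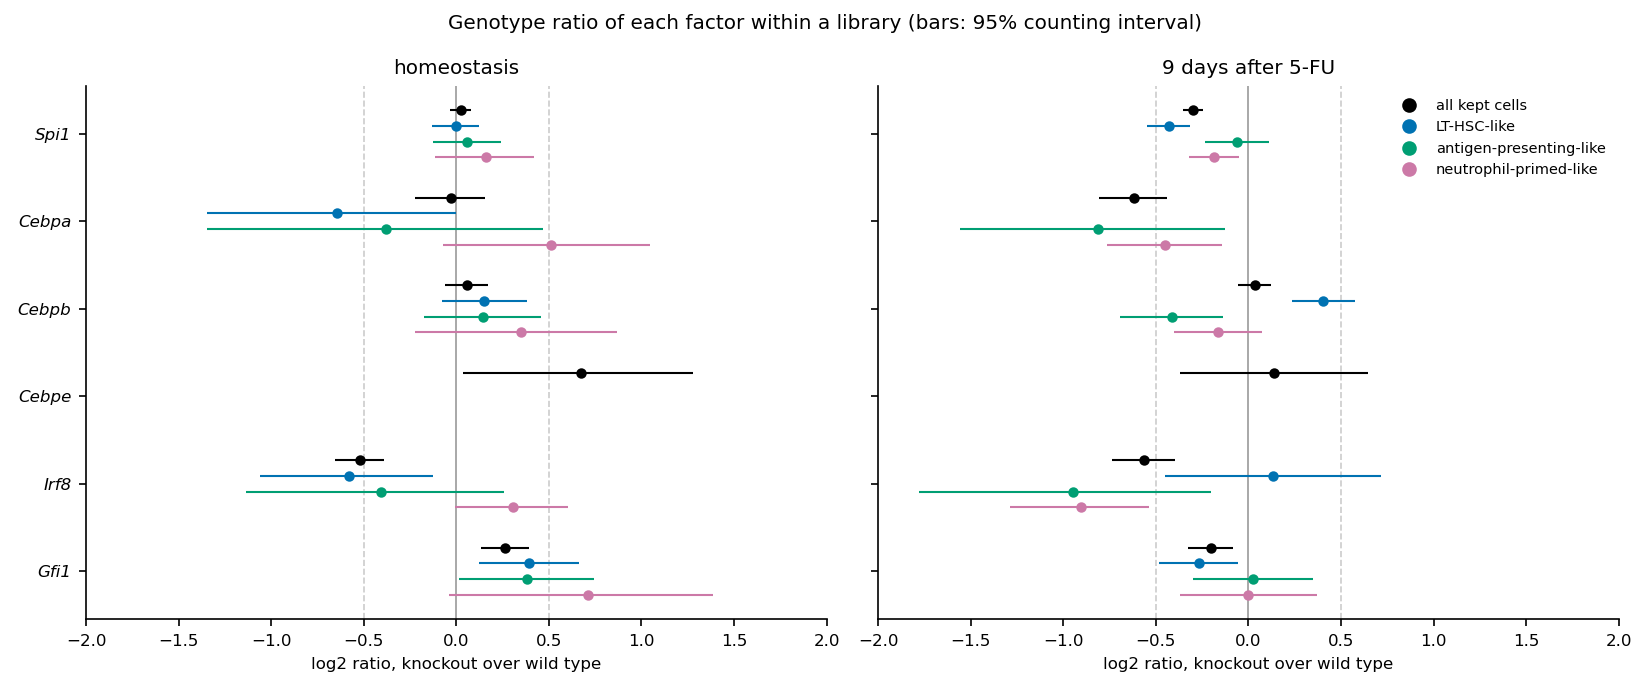
Log2 ratio of knockout over wild type for each factor over all kept cells and in 3 classes at homeostasis (left) and after 5-FU (right), with 95% counting intervals as bars and dashed lines at an absolute ratio of 0.5; class values with under 50 UMIs over both genotypes are not drawn. Irf8 over all kept cells sits at -0.52 and -0.57, Cebpa at -0.03 and -0.62, and Gfi1 at 0.26 and -0.20.

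**Figure D4:**
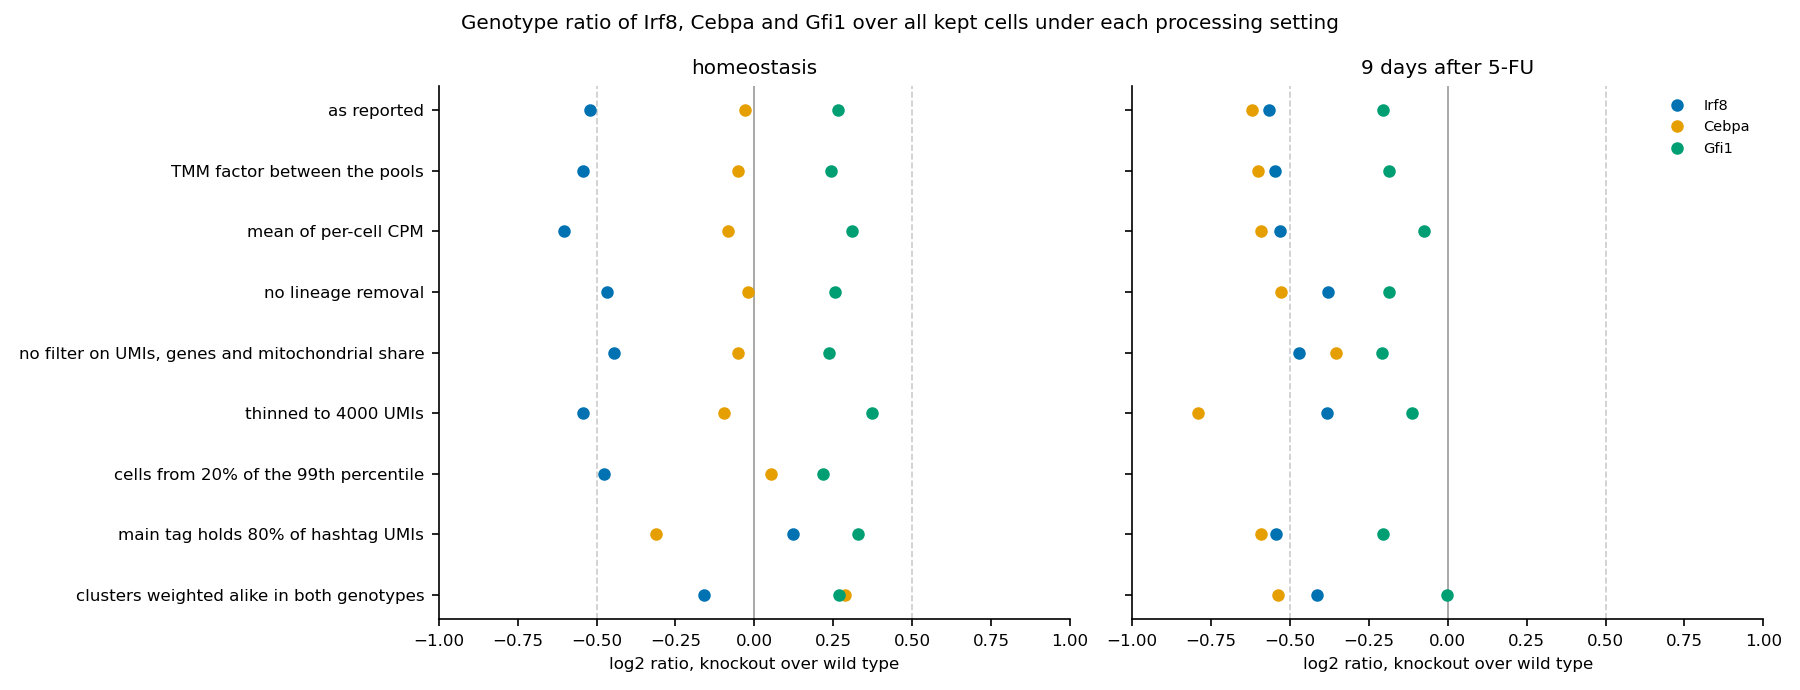
Log2 ratio of knockout over wild type over all kept cells for Irf8 (blue), Cebpa (yellow) and Gfi1 (green) under 9 settings at homeostasis (left) and 8 after 5-FU (right), with dashed lines at an absolute ratio of 0.5. Irf8 at homeostasis moves from -0.52 as reported to -0.16 with clusters weighted alike and to 0.12 under the 80% hashtag rule, whereas after 5-FU it stays between -0.57 and -0.38.

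Cells were then asked which factors they held together. After thinning every cell to 4000 UMIs, no UMI of any of the 6 was left in 49.3% (wild type) and 49.8% (knockout) of homeostasis cells and in 41.98% and 48.05% of 5-FU cells. Neutrophil-primed-like cells from homeostasis held a mean of 0.9498 (wild type) and 1.25 (knockout) members and those from 5-FU 0.974 and 0.763, and megakaryocyte-erythroid-like cells between 0.276 and 0.325. No cell held all 6.

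Cebpa and Irf8 were found together more often than the product of their shares in each pool. At homeostasis 46 wild-type cells held both, 1.58 times the product (1.16 to 2.11), and 18 knockout cells, 2.63 times (1.56 to 4.16). After 5-FU the ratio was 1.71 from 15 wild-type cells and 1.95 from 6 knockout cells, with intervals that held 1. Outside the neutrophil-primed-like cells the ratio was 1.38 (0.95 to 1.94) and 2.40 (1.28 to 4.10) at homeostasis and 2.07 (1.13 to 3.47) and 2.16 (0.70 to 5.03) after 5-FU. Spi1 and Irf8 were at 1.29 (1.05 to 1.58) in wild-type cells after 5-FU and between 1.09 and 1.30 in the other pools, with intervals that held 1.

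The lowest pair was Cebpa with Cebpb in knockout cells at homeostasis, found together in 6 cells at 0.42 times the product (0.15 to 0.92), where wild-type cells were at 1.04 from 38 cells. Without thinning that knockout value was 1.24 (0.95 to 1.59) from 61 cells, so the low value was not seen at full depth. Irf8 with Gfi1, factors of opposed fates, had a ratio at homeostasis of 0.857 (0.63 to 1.14) in the wild-type pool and 1.08 (0.65 to 1.69) in the knockout pool, and of 1.06 and 1.10 after 5-FU. The 4 ratios of Irf8 with Gfi1 had intervals that held 1. Cells of 1 library are not replicates, and the part of differences in level between classes in these ratios was not tested.

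**Figure D5:**
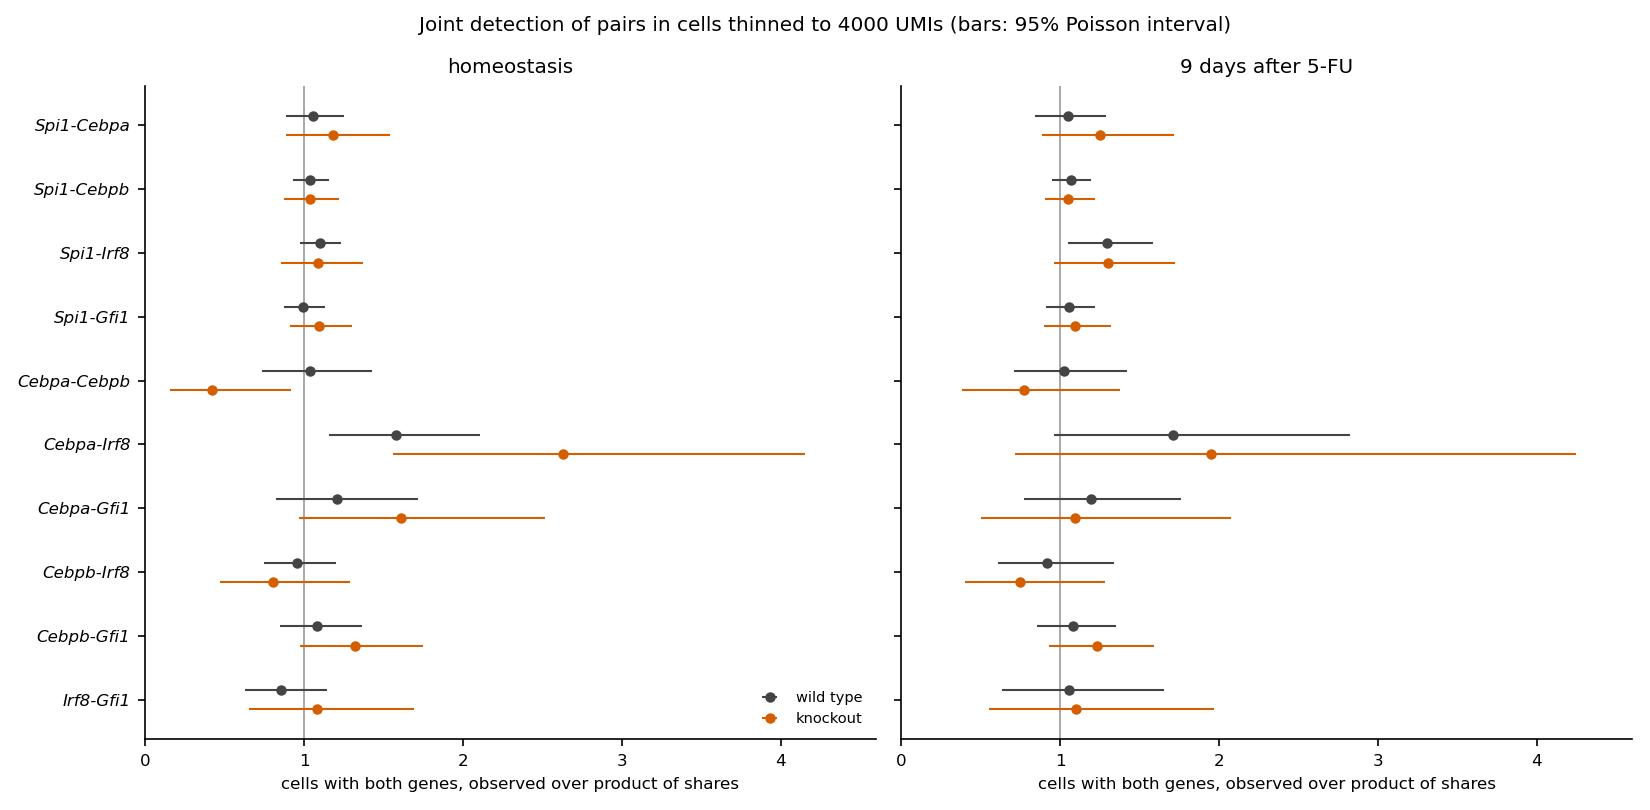
Number of cells with UMIs of both genes over the number given by the product of their shares, in cells thinned to 4000 UMIs, for the 10 pairs that leave out Cebpe, in wild-type (grey) and knockout (orange) cells at homeostasis (left) and after 5-FU (right), with 95% Poisson intervals as bars and a line at 1. Cebpa with Irf8 lies to the right in every panel and genotype (1.58, 2.63, 1.71 and 1.95), and Cebpa with Cebpb in knockout cells at homeostasis lies at 0.42.

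Across clusters of wild-type cells, 15 at homeostasis and 13 after 5-FU, which share their library and differ in depth, the levels of Cebpa and Irf8 went together with Pearson's r of 0.91 and 0.70, Spi1 and Cebpa with 0.88 and 0.68, and Spi1 and Gfi1 with 0.75 and 0.80. These are descriptions of log2(CPM + 10). Of 10502 genes searched, those whose pattern lay nearest, by the lower of both correlations, were Ramp1, Arl11 and Gm2a for Spi1 (0.92 and 0.94 for Ramp1) and Tyrobp, Parvg and Ccl9 for Cebpa (0.92 and 0.94 for Tyrobp). For Irf8 they were Slc4a8, Clec12a and Gm26740 (0.95 and 0.89 for Slc4a8), for Gfi1 Laptm4b, Lyl1 and Limd2 (0.94 and 0.95 for Laptm4b) and for Cebpb Ly6a, Limd2 and Tmem141 (0.87 and 0.87 for Ly6a). The gene nearest to Cebpe, Mrps35, reached only 0.71 and 0.75, from few UMIs.

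Genes that work with or under the factors were read from 3 lists. Of 20 factors that act with or against the members, 18 had at least 50 UMIs in each library. Past the fold were 3 higher and 2 lower in knockout cells at homeostasis, where 6.90% of all genes were higher and 6.54% lower, and 0 higher and 4 lower after 5-FU, against 4.84% and 6.63% of all genes, with median log2 ratios of 0.0013 and -0.14. The edgeR fit, which called 1.66% of all genes, called 2 of the 19 tested, the immediate early genes Egr1, with a log2 fold change of -1.02 and an adjusted p of 0.00788, and Jun, with -0.66 and an adjusted p of 0.0316. Egr1, which favours macrophage fate, was at 29.8 and 13.6 CPM at homeostasis and 329 and 175 CPM after 5-FU, and Jun, a partner of PU.1, at 74.6 and 42.9 CPM and 488 and 339 CPM. Both were lower in the knockout pool of each library, and the same edgeR fit within LT-HSC-like cells called them too, with log2 fold changes of -0.96 and -0.70, together with Gata2 at 0.53 and an adjusted p of 0.00186, 3 of 18 tested against 3.75% of all genes.

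Of 15 receptors and effectors of myeloid cells, 4 were past the fold higher and 0 lower at homeostasis and 2 higher and 2 lower after 5-FU, with medians of 0.05 and -0.15. Of all genes, 6.90% were past it higher and 6.54% lower in the homeostasis library, and 4.84% higher and 6.63% lower in the 5-FU library. Itgb2, the beta chain shared by leukocyte integrins, was at 8.58 and 15.1 CPM at homeostasis and 19.2 and 27.2 after 5-FU, and was the 1 of 15 that edgeR called, against 1.66% of all genes, with a log2 fold change of 0.65 and an adjusted p of 0.0395. In LT-HSC-like cells edgeR called 2 of 12, against 3.75% of all genes, Itgb2 at 0.61 with an adjusted p of 0.0399 and Fcer1g, the Fc receptor gamma chain, at 0.83 with 0.000144. Cd14, the lipopolysaccharide coreceptor of monocytes, had 35 and 38 UMIs at homeostasis and 26 and 49 after 5-FU, log2 ratios of 1.503 and 1.17, without a call. Of the 6 corepressor partners of Gfi1, 0 were past the fold at homeostasis and 1, Ajuba, which was named after its values were seen, after 5-FU, at -0.98 from 100 and 42 UMIs. The fit called 0 of the 6 in either group of cells.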

How the data were processed

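LSK cells of wild-type (Sin3B F/F) and knockout (Sin3B H-/-) mice were profiled by hashtagged 10x 3' v3 single-cell RNA-seq. The authors made the deposited UMI counts per gene and barcode with Cell Ranger, and the submitters' processing notes also name mm9, Seurat and DESeq2. The homeostasis matrix came without gene names, so those of the 5-FU matrix were used. Total counts per gene in both matrices correlated at 0.919 in that order and at 0.393 or less when shifted by 1 to 3 rows.

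Genotypes were called with HTODemux (Seurat 5.3.0, quantile 0.99; hashtag B0096 wild type and B0157 knockout, per the study's methods). Of 23931 and 12753 cells, 1441 and 434 past the hashtag cutoff for both tags and 6283 and 3290 past it for neither were removed. Doublets within a genotype were not sought. Homeostasis cells needed 2921 UMIs. The outer 2% of UMIs, genes and mitochondrial share at each end was trimmed, and 424 and 295 cells with at least 2 UMIs of 9 lineage genes were removed.

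Cells were clustered (scanpy 1.11.5, Leiden resolution 1) without the members, the listed genes and 558 cell cycle genes. The 2007 and 1474 other genes past the genotype fold were left out too, a step added after clusters were seen to split by genotype. A class name needed at least 3 markers raised 1.5-fold.

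Log2 ratios used summed UMIs plus 0.5, with exact intervals. The fold was an absolute log2 ratio over 0.5 with at least 50 UMIs over both genotypes. Pools of both libraries were fitted with edgeR 4.0.16 (quasi-likelihood, TMM, library and genotype as terms, 1 residual degree of freedom). Its p-values rest on the spread between 2 libraries of different treatment, moderated for each gene with a trend over all genes. DESeq2 1.42.0 was an alternative. Scripts were tested on simulated data. Genes named were the members, the 3 genes nearest to each by correlation (for Cebpe only the nearest, since 1 is not reported here), and listed genes past the fold in the same direction in both libraries or called by edgeR. Members and lists were chosen with earlier results of these data known.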

Additional observations from a re-analysis of the deposited data

Results flagged for a closer look

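Gfi1 had opposite directions in the 2 libraries. Over all kept cells the log2 ratio, knockout to wild type, was 0.26 at homeostasis and -0.20 after 5-FU, and in LT-HSC-like cells 0.39 and -0.27. The 5-FU values were nearer 0 within clusters, at -0.07 and -0.04 in the 2 LT-HSC-like clusters and at -0.0033 over all kept cells with clusters weighted alike. With 1 pool per genotype and library, the difference between the libraries was not tested.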

How the results depend on the processing

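Of 655 alternative values, 535 were counted as within the interval or call of the value reported, 117 left it and 3 called values changed sign. In this count, sign changes of fit values without a call were set as within. So were fit values without a test that kept their sign. For these the count does not show that a value held. Irf8 at homeostasis was 0.12 under the 80% hashtag rule and 0.056 with clusters built with the genes that differ between genotypes and weighted alike, and Irf8 in antigen-presenting-like cells after 5-FU was 0.079 in those clusters. The cause was not tested. Members past the fold at homeostasis, 2 as reported, numbered 0 under the 80% hashtag rule and 1 with the mean of per-cell CPM, without lineage removal, without the filter on UMIs, genes and mitochondrial share, thinned, with a minimum of 5842 UMIs, with clusters weighted alike in any of the 3 clusterings, or without the cell with the most UMIs. After 5-FU they numbered 1 without lineage removal, without that filter, thinned, with clusters weighted alike, or without that cell. They numbered 0 with clusters of resolution 2, or those built with the genes that differ between genotypes, weighted alike. Genes called by edgeR over all kept cells numbered 607 with library size scaling and 782 without a low-count filter against 286, and in LT-HSC-like cells 953 without that filter and 58 by DESeq2 against 530. Leaving out 1 pool of the 4 leaves only the ratio of the other library. The Irf8 values found so, -0.56 and -0.54, repeat its ratios within the homeostasis and 5-FU libraries after TMM scaling and are no separate check. They had no residual degrees of freedom and so no test. For Gfi1 the same values were 0.23 and -0.18. The other clusterings and the omission of single cells or clusters were chosen after seeing the data. The edgeR fit had the library as a term and so compared the genotypes within each library. Cebpe, and Cebpa in LT-HSC-like cells after 5-FU, had few UMIs at this depth.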
